A study of Mus musculus with 6 samples.

Results

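Interferon-stimulated genes are the genes that cells switch on when an interferon reaches them, and 40 of them were described in mouse breast tumors. The 40 genes were chosen by name, as known interferon-induced genes and by no cut on their values, but with earlier results of these data known. They were matched by symbol to the NCBI Gene identifiers of the tumor files. All 40 were listed in all 6 tumors, among 18460 genes listed in at least 1 tumor, and all 40 were among the 13706 genes that passed the filter on low counts. In the standard picture, type I interferons signal through the receptor of *Ifnar1* and *Ifnar2*, and the kinases *Jak1* and *Tyk2* then activate a complex of transcription factors that includes the products of *Stat2* and *Irf9*. That complex binds a promoter element called the interferon-stimulated response element (ISRE). Interferon gamma, a product of T cells and natural killer cells, acts through another receptor and mainly through a second element, the gamma-activated site (GAS). The induced genes encode sensors of viral RNA and DNA, enzymes that stop translation or degrade RNA, proteins that block viral entry and budding, and GTPases that attack intracellular pathogens. In tumors the same program is used as a readout of interferon exposure.

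The tumors arose spontaneously in Balb/c mice that carry the PyMt oncogene as a transgene, under the MMTV promoter that is active in mammary epithelium, and that lack *Rag1* and therefore their own T and B cells. At the age of 4 wk every mouse was injected with CD4+ T cells, naive cells sorted from donor spleens, and tumors were collected at 18 to 20 wk. The test mice (Tslp-PyMt tg Rag1 KO, given CD4+ T cells, 3 tumors) also carried the K14-Tslp transgene, which drives the cytokine thymic stromal lymphopoietin in keratinocytes. The control mice (PyMt tg Rag1 KO, given CD4+ T cells, 3 tumors) did not. Both groups thus received T cells, so that the comparison is between mice with and without *Tslp* overexpression and holds no tumor from a mouse without transferred cells. The question put to these genes was whether their level differed between the groups, and how far tumors of the same group differed from each other.

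Each tumor held between 8373390 and 9449565 expected counts in all, and levels are given as CPM, the counts of a gene scaled to a common library size with edgeR's TMM method. *Tslp* itself had 2, 2 and 3 counts in control replicates 1 to 3 and 12, 7 and 2 counts in test replicates 1 to 3. Test replicate 3 was thus no higher than the controls. *Krt14*, the gene whose promoter the transgene is named for, was counted in every tumor, from 135 in control replicate 1 to 1104 in test replicate 3. Whether the transgene was active in the tumors was not tested, and these few *Tslp* counts are no check of the labels. Gene counts for *Rag1*, from 4 to 27 per tumor, do not resolve the deleted part and check nothing. Control replicate 2 was closer over all genes to the test tumors than to its own group. Its log2 CPM had a Pearson correlation across genes of 0.874 and 0.908 with the other control tumors, against 0.921, 0.927 and 0.935 with test replicates 1 to 3, where genes are not independent replicates. Control replicates 1 and 3 correlated at 0.949, and the test tumors with each other at 0.887, 0.921 and 0.909.

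The interferon-stimulated genes differed far more between tumors of the same group than between the groups. They were high in control replicate 1 and in test replicate 3, low in control replicate 2, and between these in the other 3 tumors. The highest of the 6 values lay in control replicate 1 for 22 genes and in test replicate 3 for the other 18, shares to be read against 21.2% and 11.1% of all tested genes. The lowest lay in control replicate 2 for 38 of the 40 genes, against 13.3% of all tested genes, and the exceptions were *Eif2ak2* and *Trim25*. Because one tumor can set the level of all 40 genes at once, the genes are not independent replicates of this pattern.

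No interferon-stimulated gene was called different between test and control tumors. At an adjusted p of 0.05 or less, edgeR's quasi-likelihood test called 0 of the 40 genes, as it called 0% of all 13706 tested genes, and the lowest adjusted p among the 40 was 0.77. DESeq2 and limma also called 0 of the 40, although DESeq2 called 344 genes over the whole table. No member reached an unadjusted p under 0.05, whereas 3.15% of all tested genes did so with a higher and 5.26% with a lower level in test tumors. The groups overlapped for every member, against 6.12% of tested genes for which all test tumors lay above and 5.86% for which all lay below the control tumors. The log2 fold change (test over control) was above 0 for 27 of the 40 genes, against 51.5% of all tested genes. With limma on log2(FPKM + 1) it was above 0 for 36 of the 40, and the share over all genes was not counted. The median log2 fold change of the 40 genes with edgeR was 0.20, with a range from -0.86 to 1.46, and the median over all tested genes was 0.02. The median standard error of these fold changes was 0.83 for the 40 genes and 0.38 for all tested genes. For these 40 genes a change smaller than that error could not be told from the spread between tumors. Larger changes, up to the 1.46 of *Oas2* (standard error 1.33, unadjusted p = 0.305, edgeR), were not resolved either.

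**Figure D1:**
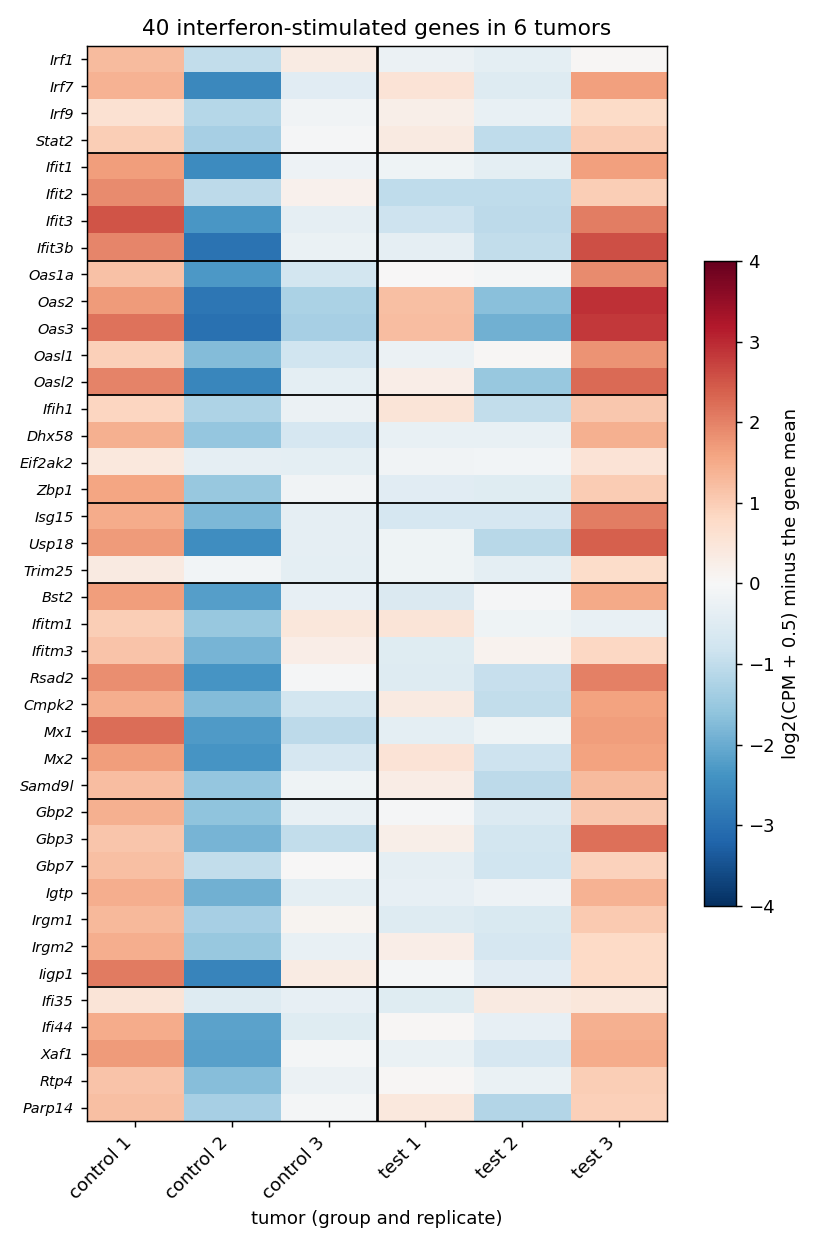
Each row is 1 of the 40 genes, grouped by role between the horizontal lines, each column is 1 tumor, and color gives log2(CPM + 0.5) minus the mean of that gene over the 6 tumors. Control replicate 1 and test replicate 3 are red and control replicate 2 is blue for nearly all genes, on either side of the line between the groups.

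Within the groups the order of the tumors was almost the same from gene to gene. The control tumors ran from replicate 1 through replicate 3 down to replicate 2 for 38 of the 40 genes, against 25.2% of all tested genes. Test replicate 3 was the highest test tumor for 39 genes, with *Ifitm1* as the exception, against 27.2% of all tested genes. Test replicate 1 was above test replicate 2 for 32 genes, a comparison for which no share over all tested genes was counted. On a log2 scale, the mean over the 40 genes of the deviation from each gene's own mean was 1.41, -1.80 and -0.33 in control replicates 1 to 3, and -0.04, -0.62 and 1.39 in test replicates 1 to 3. The highest and the lowest control tumor were therefore further apart than any test tumor was from control replicate 3.

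The range over the 6 tumors was wide. Between the highest and the lowest tumor the level differed by a median of 10.9-fold, from 1.93-fold for *Eif2ak2* to 71.7-fold for *Oas3*, whereas the median over all tested genes was 2.44-fold. A range of at least 4-fold was seen in 36 of the 40 genes, against 25.7% of all tested genes, and the 4 below it were *Irf9*, *Eif2ak2*, *Trim25* and *Ifi35*. A range of at least 10-fold was seen in 21 of the 40, against 9.4%. The SD of log2(CPM + 0.5) had a median of 1.54 over the 40 genes in control tumors and 1.09 in test tumors, beside 0.35 and 0.45 over all tested genes. The control tumors had the larger SD for 38 of the 40 genes, with *Ifih1* and *Trim25* as exceptions, against 40.1% of all tested genes. That count rested on single tumors, since it was 19 without control replicate 1, 24 without control replicate 2 and 25 without test replicate 1.

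**Figure D2:**
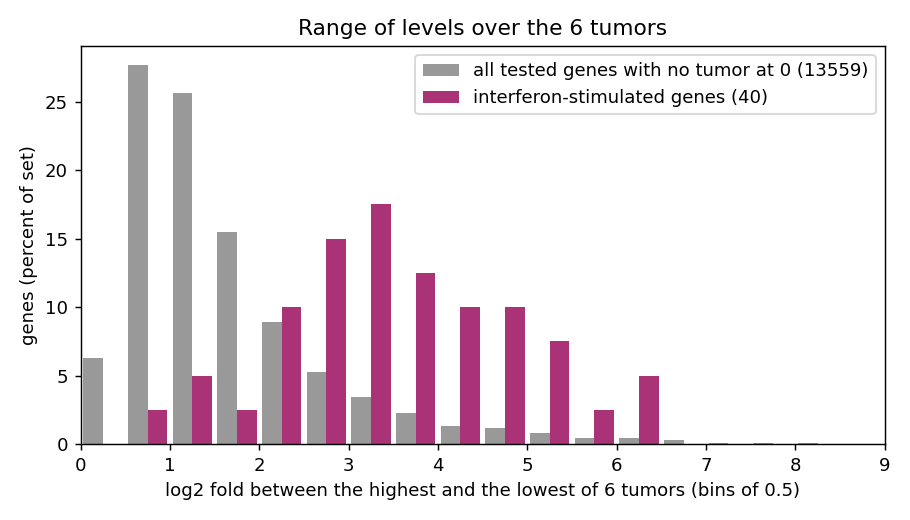
Horizontal axis, log2 fold between the highest and the lowest of the 6 tumors in bins of 0.5; vertical axis, percent of the genes in each set, for the 40 interferon-stimulated genes and for the 13559 tested genes with no tumor at 0. The interferon-stimulated genes lie to the right, with a median of 10.9-fold beside 2.44-fold for all tested genes.

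The promoters of these genes were compared for the letters of the elements that interferon signaling uses. RefSeq promoters on GRCm38.p6, from 250 bases before to 50 after the annotated start, were found for 31 of the 40 genes. The ISRE letters GAAANNGAAA stood on either strand in 18 of the 31, or 58.1%, against 3.99% of the 27025 genes and 3.44% of the 32851 promoters in the table. The GAS letters TTCNNNGAA stood in 10 of the 31, or 32.3%, against 9.55% of all genes and 8.3% of all promoters. The ISRE and GAS letters can overlap each other by a few bases, and a match is a run of letters, not a shown binding site. The 18 genes with the ISRE letters had a median range of 13.1-fold between the highest and the lowest tumor, and the 13 without them 8.71-fold. The 150 bases before the start are shown for 5 genes that stand for the IFIT proteins, the oligoadenylate synthetases, the ubiquitin-like modifier and the GTPases described afterwards. They are written 5′ to 3′ on the strand of the gene, with every match to the ISRE letters in capitals; where the match lies on the other strand it reads as its reverse complement. *Ifit1* (chr19:34640739-34640888, plus strand) had 2 matches, the first beginning at position -104 from the start, *Oas3* (chr5:120777660-120777809, minus strand) had 1 at -75, and *Isg15* (chr4:156200819-156200968, minus strand) had 3 that overlap, from -78 on. *Igtp* (chr11:58199406-58199555, plus strand) had 1 match at -34 and its neighbor *Irgm2* (chr11:58214827-58214976, plus strand) had 1 at -64, and these 2 stretches share an identical run of 38 bases.
Ifit1: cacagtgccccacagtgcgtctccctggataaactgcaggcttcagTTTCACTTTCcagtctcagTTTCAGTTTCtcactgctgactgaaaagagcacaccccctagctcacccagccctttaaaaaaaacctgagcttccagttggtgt
Oas3: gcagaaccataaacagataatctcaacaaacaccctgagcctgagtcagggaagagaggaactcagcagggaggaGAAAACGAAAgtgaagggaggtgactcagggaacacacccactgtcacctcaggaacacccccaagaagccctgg
Isg15: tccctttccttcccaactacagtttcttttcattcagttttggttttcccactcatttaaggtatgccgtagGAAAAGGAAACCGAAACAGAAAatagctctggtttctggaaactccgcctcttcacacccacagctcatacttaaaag
Igtp: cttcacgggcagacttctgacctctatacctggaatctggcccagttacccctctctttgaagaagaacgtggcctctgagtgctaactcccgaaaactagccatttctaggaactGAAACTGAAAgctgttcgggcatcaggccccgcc
Irgm2: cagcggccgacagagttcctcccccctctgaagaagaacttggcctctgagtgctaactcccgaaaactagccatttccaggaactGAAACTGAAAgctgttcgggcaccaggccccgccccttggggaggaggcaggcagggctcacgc

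The transcription factors of the pathway, *Irf1*, *Irf7*, *Irf9* and *Stat2*, ranged between tumors by a median of 5.02-fold. *Irf7* (NCBI Gene 54123, chromosome 7, 141263183 to 141266499 on GRCm38) encodes the factor that amplifies type I interferon production. Levels of *Irf7* were 373, 23.1 and 104 CPM in control replicates 1 to 3 and 206, 98.7 and 440 CPM in test replicates 1 to 3. The 2 highest tumors came from different groups, the lowest test tumor was below 2 of the control tumors, and the spread within a group, 183 CPM (SD, n = 3) in control and 175 CPM (SD, n = 3) in test tumors, was larger than the difference of the means, 167 and 248 CPM. The log2 fold change was 0.57 (standard error, SE, of 0.92, adjusted p = 0.881, edgeR). *Stat2*, a subunit of the ISRE-binding complex, was at 99.6, 20.0 and 49.0 CPM in control and 65.6, 24.8 and 103 CPM in test tumors. *Irf9*, which brings that complex to DNA, moved in the same order over a narrower range of 3.83-fold. *Irf1* (NCBI Gene 16362), a factor strongly induced by interferon gamma, kept the common order of the tumors within each group. It was at 89.2, 18.3 and 46.1 CPM in control and at 31.1, 28.0 and 38.6 CPM in test tumors. Its test tumors lay close together, and test replicate 3, high for the other factors, was below both control replicate 1 and control replicate 3. Its log2 fold change was -0.65 (SE 0.52, adjusted p = 0.77, edgeR), and without control replicate 2 it was the single member with an unadjusted p under 0.05, against 14.3% of all tested genes in that fit, and with groups that did not overlap, against 35.1%.

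The IFIT proteins are RNA-binding proteins, of which IFIT1 binds viral RNA that lacks the methylation of host mRNA and blocks its translation. The 4 IFIT genes lie side by side on chromosome 19, from 34550550 to 34650009, and had a median range of 25.6-fold between tumors. *Ifit1* (NCBI Gene 15957), whose promoter is printed above with its pair of ISRE matches, was at 241, 12.7 and 64.8 CPM in control replicates 1 to 3 and 66.1, 57.0 and 236 CPM in test replicates 1 to 3. The highest control and the highest test tumor were nearly level, and so were control replicate 3 and test replicate 1. Its log2 fold change was 0.17 (SE 0.96, adjusted p = 0.969, edgeR). *Ifit2* was at 88.9, 11.1 and 26.6 CPM in control and 11.3, 11.4 and 47.0 CPM in test tumors, with the most negative log2 fold change of the 40 genes, -0.86 (SE 0.84, adjusted p = 0.801, edgeR). In *Ifit2*, test replicates 1 and 2 were as low as control replicate 2, which was not so for *Ifit1*. *Ifit3* and *Ifit3b* are near-identical copies, with 51.2% of the 50-base words of *Ifit3* transcripts found in *Ifit3b*, so that reads may be split between them. Their summed level was 206, 6.06 and 33.0 CPM in control and 27.0, 19.9 and 209 CPM in test tumors, a range of 34.4-fold with the same tumors high and low.

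The oligoadenylate synthetases make the short 2′-5′ linked chains that activate RNase L, and among the related OASL proteins *Oasl1* lacks that activity whereas mouse *Oasl2* has it. All 5 had their lowest level in control replicate 2 and their highest in test replicate 3, and their median range of 30.3-fold was the widest of the 8 role groups. *Oas3* (NCBI Gene 246727, chromosome 5, 120753098 to 120777684) was at 78.1, 1.73 and 6.50 CPM in control replicates 1 to 3 and 40.9, 4.15 and 124 CPM in test replicates 1 to 3. Control replicates 2 and 3 and test replicate 2 were all low, and the other 3 tumors, from both groups, were higher. Its log2 fold change was 0.97 (SE 1.41, adjusted p = 0.862, edgeR), the largest standard error of the 40 genes. *Oas2*, its neighbor, was at 63.8, 2.16 and 7.78 CPM in control and 45.3, 5.74 and 151 CPM in test tumors, and had the most positive log2 fold change of the 40 genes, 1.46 (SE 1.33, adjusted p = 0.788, edgeR). *Oasl2* was at 362, 14.3 and 68.6 CPM in control and 110, 31.5 and 433 CPM in test tumors. For these 3 genes test replicate 1 was well above test replicate 2. For *Oas1a* and *Oasl1* the same tumors were close, at 33.2 and 31.0 CPM for *Oas1a* and 15.0 and 18.3 CPM for *Oasl1*. *Oas1a* shares 57.6% of its 50-base words with *Oas1g*, so that reads may be split between them and the level of *Oas1a* is less certain.

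**Figure D3:**
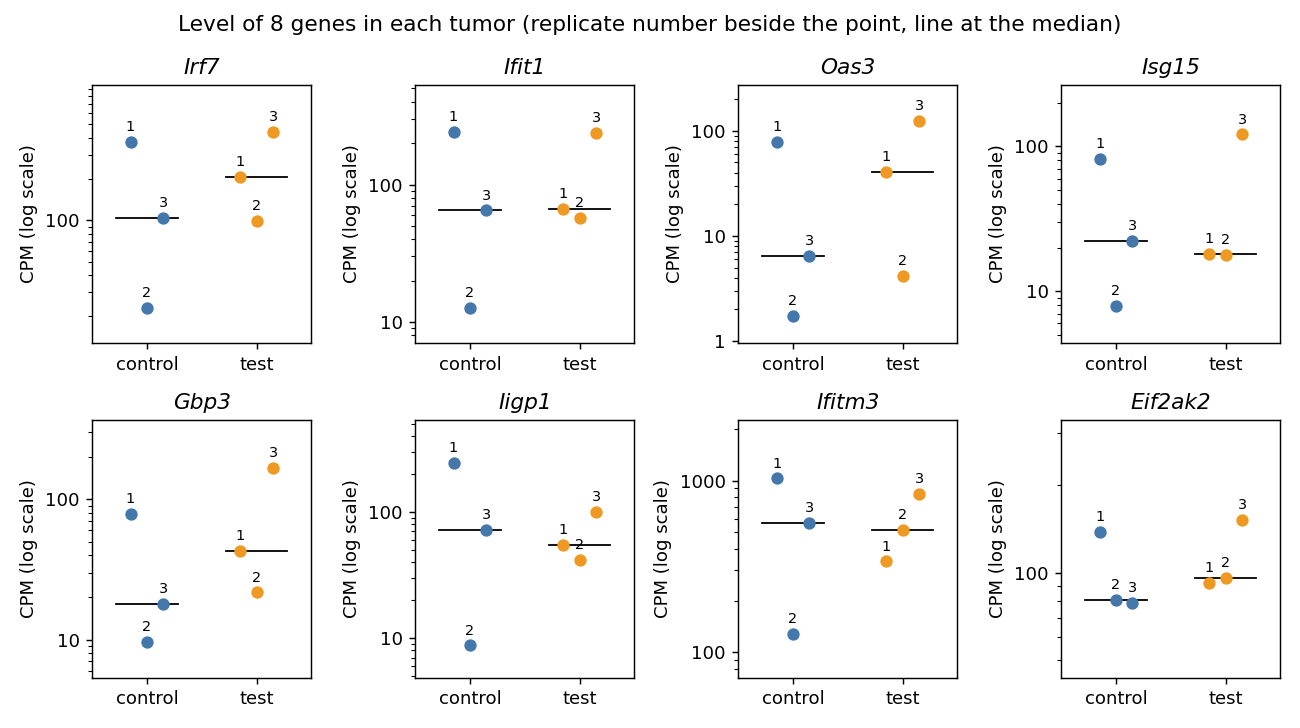
Each panel is 1 gene and each point 1 tumor, in control (left) and test (right) tumors, with the replicate number beside the point, the line at the median of the group and CPM on a log scale. The groups overlap in every panel, and *Oas3* spans 71.7-fold where *Eif2ak2* spans 1.93-fold.

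The 4 sensors of nucleic acid, among them a kinase, had a median range of 6.67-fold. *Ifih1* encodes MDA5, a sensor of long double-stranded RNA, and was at 142, 32.6 and 65.6 CPM in control replicates 1 to 3 and 110, 39.1 and 166 CPM in test replicates 1 to 3. *Dhx58* encodes LGP2, a regulator of that sensor, and was level in the 2 highest tumors, at 75.0 CPM in control replicate 1 and 74.9 CPM in test replicate 3. *Zbp1*, a sensor of Z-form nucleic acid that can trigger cell death, was at 151, 17.3 and 45 CPM in control and 36.3, 35.8 and 103 CPM in test tumors. *Eif2ak2* (NCBI Gene 19106) encodes PKR, the kinase that stops translation on double-stranded RNA, and had the narrowest range of the 40 genes. It was at 138, 80.5 and 78.6 CPM in control and 92.5, 95.9 and 152 CPM in test tumors, so that control replicate 2 was not the lowest. The high tumors were the same as for the other genes. Its log2 fold change was 0.20 with a 95% interval from -0.57 to 0.97 (edgeR).

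ISG15 is a ubiquitin-like modifier that is attached to other proteins, USP18 removes it and damps receptor signaling, and TRIM25 is a ubiquitin ligase of the RNA sensing pathway. *Isg15* (NCBI Gene 100038882), with the 3 overlapping ISRE matches shown above, was at 81.5, 7.89 and 22.3 CPM in control replicates 1 to 3 and 18.1, 17.9 and 121 CPM in test replicates 1 to 3. One tumor of each group was high, and test replicates 1 and 2 lay between control replicates 2 and 3. Its log2 fold change was 0.49 (SE 0.99, adjusted p = 0.905, edgeR). *Usp18* ran in the same order from 3.35 to 112 CPM, a range of 33.3-fold, except that test replicate 1 was above control replicate 3. *Trim25* kept within 2.2-fold, from 79.5 CPM in test replicate 2 to 174 CPM in test replicate 3.

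Among the proteins that restrict viral entry, budding and replication, *Ifitm3* (NCBI Gene 66141), which blocks fusion of viral and host membranes, had the highest level per length of the 40 genes, a mean of 895 FPKM over the 6 tumors. The next was *Irf7* with a mean of 112 FPKM and the lowest was *Mx1* with 3.76 FPKM. In CPM, *Ifitm3* was at 1030, 128 and 564 in control replicates 1 to 3 and at 338, 514 and 835 in test replicates 1 to 3, an 8.01-fold range. Here test replicate 2 was above test replicate 1, and control replicate 3 was above both. *Ifitm1*, its neighbor on chromosome 7, was low, from 0.757 to 6.60 CPM, and was the one gene for which test replicate 3 was the lowest test tumor. *Bst2*, which encodes tetherin, a protein that holds budding virus at the cell surface, was at 157, 10.3 and 38.9 CPM in control and 33.0, 47.7 and 143 CPM in test tumors. *Rsad2* encodes viperin, which makes a chain-terminating nucleotide, and *Cmpk2* beside it on chromosome 12 encodes a mitochondrial nucleotide kinase. *Rsad2* was at 95.7, 4.65 and 25.0 CPM in control and 17.9, 13.5 and 108 CPM in test tumors, and *Cmpk2* at 59.8, 6.06 and 12.5 CPM in control and 27.7, 10.6 and 66.2 CPM in test tumors. The pair was high in the same tumors. The Mx GTPases *Mx1* and *Mx2*, which trap viral nucleocapsids, were at 8 and 9 counts in control replicate 2, so that their ranges of 35.6-fold and 24.3-fold rest on few reads at the low end. Many laboratory strains carry defective alleles of *Mx1*, which gene counts do not resolve. *Samd9l*, a translation inhibitor, had a range of 7.31-fold and was close in control replicate 1 and test replicate 3, at 94.4 and 95.6 CPM.

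The guanylate-binding proteins and immunity-related GTPases, which damage the membranes around intracellular pathogens and respond strongly to interferon gamma, had 7 members here. The ISRE letters were found in all 6 of the 7 that had a promoter entry. *Igtp*, whose promoter is printed above, was at 123, 11.4 and 34.4 CPM in control replicates 1 to 3 and 35.7, 39.3 and 118 CPM in test replicates 1 to 3. *Irgm2*, beside it, was at 120, 15.1 and 35.9 CPM in control and 52.4, 27.3 and 76.3 CPM in test tumors. The neighbors were close to each other in all 3 control tumors and further apart in the test tumors. *Gbp3* (NCBI Gene 55932, chromosome 3, 142560016 to 142573213) was at 78.5, 9.63 and 17.9 CPM in control and 42.9, 21.7 and 168 CPM in test tumors. Test replicate 3 was the highest of the 6, control replicate 1 came next, and the log2 fold change was 1.13 (SE 0.94, adjusted p = 0.776, edgeR). *Gbp2* and *Gbp7* lie on either side of it. *Gbp2* was at 131, 15.6 and 40 CPM in control and 48.0, 33.7 and 104 CPM in test tumors, a log2 fold change of -0.01 (SE 0.75, adjusted p = 0.998, edgeR). *Gbp7* ran from 19.6 to 92.1 CPM and was highest in control replicate 1, so that of these 3 neighbors *Gbp3* alone was highest in test replicate 3. *Irgm1*, a regulator of the other immunity-related GTPases, was at 182, 28.9 and 79.2 CPM in control and 51.8, 48.2 and 154 CPM in test tumors. *Iigp1*, an effector of that family, was at 244, 8.76 and 72.0 CPM in control and 55.0, 41.7 and 100 CPM in test tumors, a log2 fold change of -0.72 (SE 0.94, adjusted p = 0.846, edgeR). Its range was 27.8-fold, and its test tumors lay within the range of the control tumors.

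The 5 remaining genes were lowest in control replicate 2 and highest in control replicate 1. *Ifi44*, which was at 363, 29.1 and 92.1 CPM in control replicates 1 to 3 and 132, 103 and 345 CPM in test replicates 1 to 3, is a strongly induced gene of poorly known function. *Rtp4*, which encodes a receptor-transporting protein, ran from 36.8 to 266 CPM. *Xaf1*, a proapoptotic factor, ran from 4.65 to 74.0 CPM, and *Parp14*, a mono-ADP-ribosyltransferase, from 25.6 to 148 CPM. Each of these 3 was at its second highest level in test replicate 3. *Ifi35*, a partner of NMI, had a range of 2.04-fold, from 25.7 to 52.5 CPM, and test replicate 2 at 47.1 CPM was close to test replicate 3 at 50.2 CPM. All 5 were lower in test replicate 3 than in control replicate 1 by CPM.

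**Figure D4:**
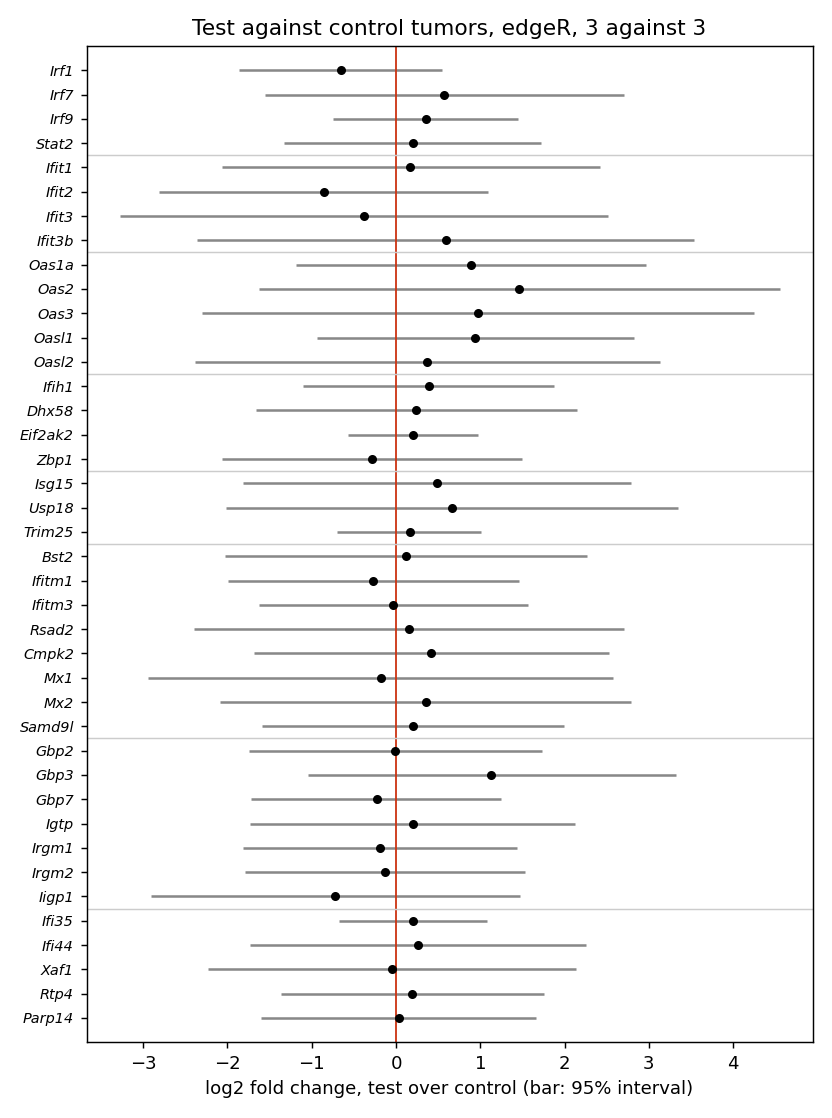
Points are log2 fold changes of test over control tumors from edgeR for the 40 genes, grouped by role, and bars are 95% intervals, with 3 tumors in each group. Every interval includes 0, and the points run from -0.86 for *Ifit2* to 1.46 for *Oas2*.

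The tumors with the highest levels, control replicate 1 and test replicate 3, were not high to the same degree for every role. By CPM, test replicate 3 was above control replicate 1 for all 5 oligoadenylate synthetases, by a median of 1.64-fold, and for all 3 genes of ISG15 conjugation, by a median of 1.48-fold. It was above for 1 of the 7 GTPases, *Gbp3* at 2.14-fold, with a group median of 0.82-fold, for 1 of the 4 IFIT genes, and for 0 of the 5 remaining genes. *Irf1*, *Ifitm1* and *Iigp1* were the furthest in the other direction, at 0.433-fold, 0.37-fold and 0.412-fold. Over all 40 genes 18 were higher in test replicate 3 by CPM and 24 by the deposited FPKM. With FPKM the count was 5 of 5 for the synthetases, 3 of 3 for ISG15 conjugation, 2 of 7 for the GTPases, 2 of 4 for the IFIT genes and 2 of the 5 remaining genes. This sets 1 tumor against 1 tumor and carries no test, and the same count over all tested genes was not made.

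**Figure D5:**
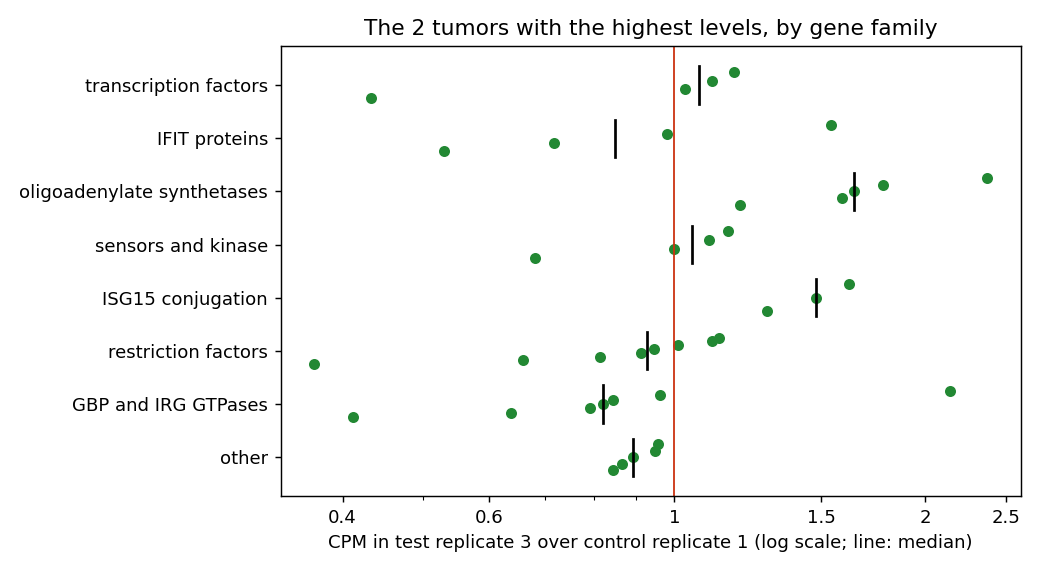
Each point is 1 gene, placed by its CPM in test replicate 3 divided by that in control replicate 1 on a log scale, in rows by role with a line at the median of the row; the vertical line marks equal levels. All 5 oligoadenylate synthetases lie to the right of it, and 6 of the 7 GTPases lie to the left.

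The rest of the pathway was read from fixed lists of 114 genes, of which 97 were listed in at least 1 tumor and 91 were tested, and edgeR called 0 of them at an adjusted p of 0.05 or less, as did DESeq2 and limma. At an unadjusted p under 0.05 (edgeR), 1 was lower and 0 were higher in test tumors, against 5.26% and 3.15% of all tested genes. Interferon genes themselves were at or near the floor of 3 counts that the depth can show. Of 20 interferon genes, 17 were not listed in any of the 6 tumors. *Ifnb1* had 2 counts in test replicate 3, *Ifng* had 1 count in control replicate 1, *Ifnz* had 1 count in control replicate 2 and 5 in test replicate 1, and all 3 were at 0 elsewhere. Interferon transcripts were thus barely detectable or not detectable at this depth, which does not show that they were absent. The 6 receptor genes were steady, with a median range of 1.82-fold. *Ifnar1* was at 130, 116 and 124 CPM in control replicates 1 to 3 and 94.2, 117 and 103 CPM in test replicates 1 to 3. *Ifngr1*, which encodes the ligand-binding chain of the interferon gamma receptor, was at 50.1, 50.2 and 50.3 CPM in control and 84.8, 65.1 and 62.2 CPM in test tumors. Its groups did not overlap, with every test tumor higher, against 6.12% of all tested genes, and its log2 fold change of 0.49 (SE 0.23) had an unadjusted p of 0.0679 and an adjusted p of 0.64 (edgeR). Of the 91 pathway genes tested, 2 did not overlap in the other direction, against 5.86% of all tested genes. These were *Ptpn1*, a phosphatase that damps signaling, with a log2 fold change of -0.49 (SE 0.21, adjusted p = 0.603, edgeR), and *Ticam1*, the adaptor of TLR3, with -0.39 (SE 0.28, adjusted p = 0.736, edgeR).

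The pathway gene with an unadjusted p under 0.05 was among the 18 of nucleic acid sensing and interferon induction. *Tmem173*, which encodes STING, the adaptor of cytosolic DNA sensing, was at 203, 54.4 and 112 CPM in control and 24.7, 56.0 and 39.7 CPM in test tumors. The groups overlapped through control replicate 2, and the log2 fold change was -1.62 (SE 0.51, unadjusted p = 0.0145, adjusted p = 0.469, edgeR). Test replicate 3, among the highest for interferon-stimulated genes, was low for *Tmem173*. Of 60 further interferon-induced genes, 57 were tested. For 55 of them the highest tumor was control replicate 1 or test replicate 3, against 21.2% and 11.1% of all tested genes. For 37 the lowest was control replicate 2, against 13.3% of all tested genes, and the median log2 fold change of the 57 was -0.01. *Cxcl10*, a chemokine that draws activated T cells, had this order at low levels, with 10.1, 0.649 and 2.34 CPM in control and 0.692, 1.46 and 8.38 CPM in test tumors. *Cxcl9*, a chemokine induced mainly by interferon gamma, did not, with 2.55, 2.81 and 4.37 CPM in control and 2.42, 5.37 and 7.0 CPM in test tumors.

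Markers of the cells in the tumors were set beside this pattern, since in bulk tumor RNA more cells of one type and more RNA per cell cannot be told apart. The 5 leukocyte markers summed to 252, 140 and 278 CPM in control replicates 1 to 3 and 97.6, 186 and 198 CPM in test replicates 1 to 3, led by *Laptm5*. The lowest leukocyte sum, in test replicate 1, was in a tumor with intermediate interferon-stimulated genes. Within each group the sum was highest in replicate 3, and control replicate 2 had the lowest control sum. *Laptm5*, at 126, 69.3 and 171 CPM, put control replicate 3 highest. *Ptprc*, *Coro1a*, *Cd53* and *Cd52* ran from control replicate 1 through 3 down to 2, *Ptprc* at 44.2, 17.7 and 34.1 CPM. In the test tumors *Ptprc* and *Laptm5* were highest in replicate 3, and *Coro1a*, *Cd53* and *Cd52* in replicate 2. The 7 macrophage markers, led by *Lyz2*, summed to 514, 568 and 926 CPM in control replicates 1 to 3 and 515, 905 and 533 CPM in test replicates 1 to 3. The markers of this list differed in their order. *Cd68* alone of the 7 ran in the order of the interferon-stimulated genes in the control tumors, at 102, 23.5 and 57.1 CPM. It was at 19.3, 37.4 and 29.6 CPM in the test tumors. *Cd14* ran in the reverse order in the control tumors, at 57.6, 141 and 72.4 CPM. Its level was 196, 183 and 185 CPM in the test tumors. Among the control tumors, the other macrophage markers were highest in replicate 3. T cell markers were low throughout, from 4.96 to 9.52 CPM summed over 7 markers led by *Lck*, with *Trac* not listed. Natural killer cell markers, led by *Gzmb*, had their highest sum in control replicate 1 at 9.37 CPM and their lowest in control replicate 2 at 1.73 CPM. The sum was 2.76 CPM in test replicate 3. Each of these markers was at 4.98 CPM or less in every tumor. *Gzmb* and *Prf1* ran from control replicate 1 through 3 down to 2. *Ncr1*, *Klrb1c* and *Klrd1* were highest in replicate 3 among the control tumors, and *Klre1* was listed in 1 tumor. B cell markers summed to 0.32 CPM or less, with *Cd79a* listed and *Ms4a1* not listed. The plasmacytoid dendritic cell list, led by *Tcf4*, summed to between 142 and 303 CPM but contains the member *Bst2*, and *Siglech*, a defining marker, was at 1.95 CPM or less in every tumor. Endothelial markers, led by *Pecam1*, kept between 92.2 and 133 CPM, and fibroblast markers, led by *Col1a1*, ranged from 932 to 4890 CPM. Epithelial markers, led by *Krt18*, summed to 2000, 3560 and 1590 CPM in control and 4720, 4700 and 5040 CPM in test tumors. Muscle markers, led by *Myh4*, summed to between 4.05 and 837 CPM and adipocyte markers, led by *Adipoq*, to between 0.231 and 88.8 CPM, both highest in test replicate 1. The part of any of these cells in the interferon pattern was not tested.

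The direction of the group difference depended on which tumors were counted. The median log2 fold change of the 40 genes was 0.20 with all 6 tumors, 1.4 without control replicate 1, -0.24 without control replicate 2 and -0.48 without test replicate 3. All 40 genes were above 0 without control replicate 1, 14 without control replicate 2 and 4 without test replicate 3. The share of all tested genes above 0 was not counted in these fits. The median log2 fold change over all genes was 0.02 without control replicate 1, 0.04 without control replicate 2 and 0.02 without test replicate 3. Without control replicate 1, 11 of the 40 genes had an unadjusted p under 0.05, against 4.65% of all tested genes in that fit, and edgeR still called 0 of the 40. In the same tumors 8 of the 40 had groups that did not overlap, against 15.4% of all tested genes. For *Irf9*, *Oas2*, *Oasl1* and *Ifi35* no fit turned the sign, but their lowest log2 fold changes were 0.01, 0.07, 0.00 and 0.01, so that these also fell to about 0. *Oas2*, with the most positive value over all 6 tumors, ran from 0.07 to 3.76.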

How the data were processed

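Total RNA of 6 breast tumors, each from a separate mouse according to the study's methods, was sequenced by Beijing Genomics Institute. The submitters' processing notes name Bowtie, RSEM and the mm10 build. The authors deposited for each gene an expected count, an estimate that is not normalized and need not be whole, and an FPKM, a value the authors divided by gene length and by sequencing depth. Strand and annotation release are not given in the sources used here. The paper names a Poisson method, NOISeq or EBSeq for its own tests, which were not used here. A gene not listed for a tumor was set to 0.

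Rounded to whole numbers, the expected counts were fitted over all genes in R 4.3.3 with edgeR 4.0.16, with filterByExpr, TMM, the quasi-likelihood test without covariates and Benjamini-Hochberg adjustment over 13706 genes, at a threshold of 0.05. The coefficient of variation between tumors shared by all genes was 0.434. The SE was derived from the log2 fold change and its F statistic. Spread was taken on log2(CPM + 0.5). The floor of 3 counts covers counting error only. Scripts were tested on simulated data with known changes.

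Of 18460 identifiers, 18400 were matched by NCBI Gene identifier to symbols on GRCm38. Promoters were taken from RefSeq, and 9 members had no entry. Copies were compared by 50-base words of reference transcripts. The members, role groups, pathway lists and markers were chosen with earlier results of these data known. All 40 members are named, with every pathway gene at an unadjusted p under 0.05, *Ifng*, *Ifnb1*, *Ifnar1*, *Ifngr1*, *Cxcl9* and *Cxcl10*, and the highest marker of each cell type list. A further gene of this rule is not reported here. *Ifnz*, *Ptpn1*, *Ticam1*, *Siglech*, *Ptprc*, *Coro1a*, *Cd53*, *Cd52*, *Cd68*, *Cd14*, *Prf1*, *Ncr1*, *Klrb1c*, *Klrd1*, *Klre1*, *Krt14*, *Tslp* and *Rag1* lie outside that rule and were added with their values known. Alternatives were DESeq2 1.42.0, RLE scaling, no filter, at least 10 counts in every tumor, limma 3.58.1 on log2(FPKM + 1) and log2(FPKM + 0.1), the replicate number as a block and leaving out each tumor. Summing *Ifit3* with *Ifit3b*, and recounting the order of tumors by RLE and FPKM, were added after the data were seen.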

Additional observations from a re-analysis of the deposited data

How the results depend on the processing

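With no tumor left out, 0 of the 40 genes were called under every setting tried, and their lowest adjusted p ran from 0.703 (replicate block) to 0.811 (limma on log2(FPKM + 1)). Over all genes DESeq2 called 344, limma on log2(FPKM + 1) called 1, and each other setting on the 6 tumors called 0. Leaving out 1 tumor gave from 0 to 182 calls over all genes, the highest without control replicate 2, and again 0 of the 40, whose lowest adjusted p then ran from 0.243 (without control replicate 2) to 1 (without control replicate 1). Members at an unadjusted p under 0.05 ran from 0 to 11, members whose groups did not overlap from 0 to 8, members above a log2 fold change of 0 from 4 to 40, and members with the larger SD in control tumors from 19 to 39. The share of all tested genes above 0 was counted only for the main edgeR fit. The replicate numbers did not pair the tumors: deviations of same-numbered tumors correlated at -0.02, 0.12 and -0.14. With the number as a replicate block, 0 genes were called, the median log2 fold change was 0.52 and 37 members were above 0. Of 277 values of single members under other settings, 28 had the other sign. On log2(FPKM + 1) these were *Ifit3* 0.05, *Zbp1* 0.17, *Ifitm1* 0.02, *Ifitm3* 0.31, *Mx1* 0.35, *Gbp2* 0.30, *Irgm2* 0.20, *Iigp1* 0.10 and *Xaf1* 0.27. On log2(FPKM + 0.1) they were *Ifit3* 0.12, *Zbp1* 0.18, *Ifitm1* 0.12, *Ifitm3* 0.31, *Mx1* 0.79, *Gbp2* 0.33, *Irgm2* 0.24, *Iigp1* 0.18 and *Xaf1* 0.37. With the replicate block, *Cxcl10* included, they were *Ifit3* 0.45, *Zbp1* 0.14, *Ifitm1* 0.05, *Ifitm3* 0.35, *Mx1* 1.19, *Gbp2* 0.39, *Irgm1* 0.01, *Irgm2* 0.27, *Iigp1* 0.22, *Xaf1* 0.48 and *Cxcl10* 0.00. Of 240 member values with 1 tumor left out, 73 had the other sign. With each tumor left out in turn, the log2 fold change ran as follows: *Irf1* from -1.05 to 0.01, *Irf7* from -0.12 to 1.96, *Stat2* from -0.30 to 0.90, *Ifit1* from -0.77 to 1.63, *Ifit2* from -1.88 to 0.30 and *Ifit3* from -2.11 to 1.85. In the same 6 fits the next ranges were *Ifit3b* from -1.35 to 2.40, *Oas1a* from -0.06 to 2.26, *Oas3* from -0.34 to 3.77, *Oasl2* from -1.05 to 2.21, *Ifih1* from -0.09 to 1.09 and *Dhx58* from -0.58 to 1.61. Then came *Eif2ak2* from -0.06 to 0.51, *Zbp1* from -0.96 to 0.90, *Isg15* from -1.03 to 1.79, *Usp18* from -1.05 to 2.26, *Trim25* from -0.25 to 0.39 and *Bst2* from -0.75 to 1.60. For the restriction factors the ranges were *Ifitm1* from -0.75 to 0.33, *Ifitm3* from -0.50 to 0.70, *Rsad2* from -1.39 to 1.64, *Cmpk2* from -0.43 to 1.91, *Mx1* from -1.19 to 2.5 and *Mx2* from -0.40 to 2.22. Next were *Samd9l* from -0.47 to 1.18, *Gbp2* from -0.59 to 1.15, *Gbp3* from -0.11 to 2.49, *Gbp7* from -0.91 to 0.53, *Igtp* from -0.56 to 1.49 and *Irgm1* from -0.94 to 0.64. Further ranges were *Irgm2* from -0.58 to 1.02, *Iigp1* from -1.26 to 0.70, *Ifi44* from -0.44 to 1.67, *Xaf1* from -1.02 to 1.31, *Rtp4* from -0.25 to 1.15 and *Parp14* from -0.43 to 0.88. Last, the range was *Cxcl10* from -1.98 to 1.23. *Irf9* ran from 0.01 to 0.86, *Oas2* from 0.07 to 3.76, *Oasl1* from 0.00 to 2.10 and *Ifi35* from 0.01 to 0.57, without a turn of sign. The cause of these changes was not tested. At least 10 counts in every tumor left out *Ifitm1*, *Mx1* and *Mx2*. The depth limits the interferon genes, which were at or near 3 counts, and the spread between 3 tumors limits the rest.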
